A study of Mus musculus with 34 samples.

Results

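Monocytes of MC38 tumors and of LLC tumors differ in many transcripts, and cultured monocytes given the supernatant of the same tumor lines differ as well. The 2 differences were set against each other gene by gene. The value followed here, the difference of differences, is the log2 difference between MC38 and LLC in tumors minus the log2 difference between MC38 and LLC supernatant in culture. It used 14 of the 34 libraries of the series and was tested in 12784 of the 24475 genes in the deposited table.

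All cells came from C57/Bl6 mice, and no genetic change is named in the labels. The in vivo groups were 4 libraries of Ly6C+ CD88+ Sca1+ monocytes sorted from tumors of MC38, a colon adenocarcinoma line (TuMon1), and 4 of Ly6C+ CD88+ Sca1- monocytes from tumors of the Lewis lung carcinoma line LLC (TuMon2). The culture groups started from bone marrow monocytes: 3 libraries of cells given MC38 supernatant, labelled Sca1+ (TuMon1), and 3 of cells given LLC supernatant, labelled Sca1- (TuMon2). Untreated Ly6C+ control cultures (4 libraries) are given as levels only. Subset and tumor line coincide in every group, and tumor and culture also differ in the source of the cells (tumor or bone marrow), so a difference between settings cannot be told apart from these. Whether replicates are different mice or dishes is not stated in the labels. All p-values therefore measure only the spread of these samples, which may be technical. Tumor age, supernatant dose and culture time are likewise unstated.

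Monocytes leave the bone marrow, enter tumors and change there under secreted proteins, cell contact, low oxygen and dying cells. Conditioned medium carries what a tumor line secretes or sheds. Interferons are secreted signals that turn on antiviral, antigen-presenting and chemokine genes through receptor-bound kinases and interferon regulatory factors, and Sca1, encoded by Ly6a, is one of their targets in mouse blood cells.

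The 14 libraries held 13198843 to 26966644 estimated counts each, in 13856 to 16973 genes. MC38 supernatant replicate 3 stood apart: its 16 connective tissue markers summed to 3961 CPM (counts scaled to a common library size), against 6.16 and 7.83 CPM in the other two libraries of its group and 1.26 to 3.14 CPM after LLC supernatant. Named genes that rest most on this library are given with and without it. List counts include it unless stated. Control culture replicate 2 held muscle and epithelium transcripts (202 and 83.6 CPM over the marker lists), which touches the control levels only.

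The sorted antigens were read first. Ly6a (chr15:74994877-74998031, GRCm38) was at 1633, 1630, 1660 and 1734 CPM in the MC38 tumor libraries and at 36.7, 27.8, 35.8 and 37.6 CPM in the LLC tumor libraries. After MC38 supernatant it was at 1339, 1420 and 1110 CPM, after LLC supernatant at 10.3, 9.94 and 9.74 CPM and in the control cultures at 7.58, 6.83, 7.26 and 10.2 CPM. The groups did not overlap in either setting, and the labelled Sca1+ cells were high in both. Sca1 itself defines the groups, so a Ly6a difference in each setting follows from the sort or label and is no separate result. The tumor difference was 5.6 ± 0.11 (SE, adjusted p = 1.79e-14) and the culture difference 7.01 ± 0.13 (SE, adjusted p = 5.86e-15) on the log2 scale, and the difference of differences was -1.42 ± 0.14 (SE, adjusted p = 1.25e-06). The call of this last value was lost in 1 alternative fit, that with all 34 libraries. C5ar1, which encodes CD88, was lower in MC38 than in LLC tumors (-0.63 ± 0.07), and in culture the supernatants gave 539.9 ± 66.4 and 541 ± 17.4 CPM (SD, n = 3 each), above the 11.6 ± 1.54 CPM of control cultures (n = 4). Ly6c2, a gene of the Ly6C antigen whose reads can be split with its near-identical neighbor Ly6c1, was at 2727, 869, 1120 and 12 CPM in MC38 tumors, LLC tumors, MC38 supernatant and LLC supernatant. The last group is labelled Ly6C+ and had the lowest level, against 1508 CPM in control cultures.

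In tumors 7172 genes were called (56.1% of the genes tested, 31.9% higher and 24.2% lower in MC38, edgeR quasi-likelihood test, adjusted p under 0.05). In culture 6131 were called (48%, with 26.7% higher and 21.2% lower after MC38 supernatant). The difference of differences was called in 5502 genes (43%, with 21.5% in each direction). Of these calls 50% were higher, and 39.6% were when tumor and culture libraries were scaled separately. In the same direction in both settings were 2757 genes, which are named reproduced here. They were 38.4% of the tumor calls and 45% of the culture calls. Of these, 1780 had no called difference of differences, 526 differed more in culture and 451 differed more in tumors. Called in tumors, not in culture and with a called difference of differences were 1929 genes (tumor only, 1062 higher and 867 lower in MC38). The mirror class, culture only, held 1259 genes (725 higher and 534 lower after MC38 supernatant). Called in opposite directions were 1203 genes, 702 of them higher in MC38 tumors and lower after MC38 supernatant and 501 the reverse. These 1203 genes were 9.41% of the genes tested, 16.8% of the tumor calls and 19.6% of the culture calls. Another 2195 genes were called in 1 setting with no called difference of differences and were left undecided. In bulk samples fewer cells of a type and less RNA per cell cannot be told apart.

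**Figure D1:**
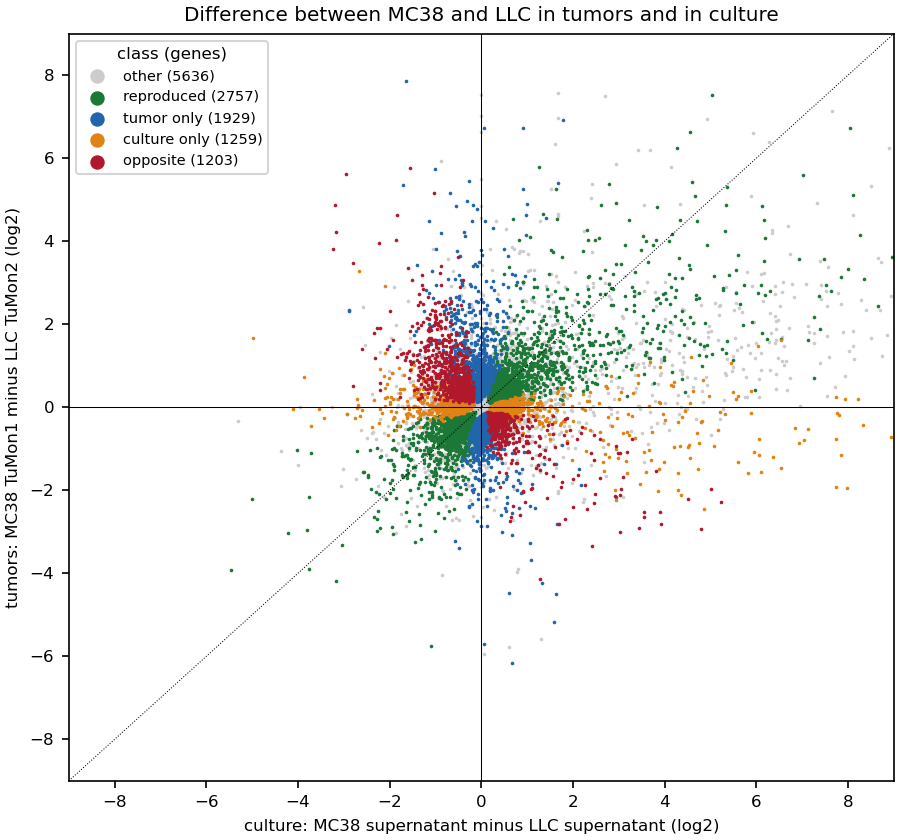
Each point is 1 of 12784 genes, with the log2 difference between MC38 and LLC supernatant on the horizontal axis and the log2 difference between MC38 and LLC tumors on the vertical axis; colors give the class, the dotted line marks equal differences, and 47 genes lie outside the axes. Reproduced genes lie at the lower left and upper right, and the 1203 opposite genes at the upper left and lower right.

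Over all genes the tumor and culture differences were correlated with Pearson's r = 0.32 and Spearman's rho = 0.247 (0.227 for r without MC38 supernatant replicate 3), a description across 12784 genes that share libraries and are no replicates. Beyond 2-fold were 13.7% of the genes tested in tumors and 12.7% in culture. Among those higher in MC38, 359 were shared, 29.8% of the 1203 in tumors and 33.1% of the 1083 in culture. Among those lower in MC38, 118 were shared, 21.5% of the 548 in tumors and 21.8% of the 542 in culture. Beyond 2-fold in opposite directions were 98 genes higher and 51 lower in MC38 tumors. The median log2 difference of all genes was 0.08 in tumors, 0.04 in culture and -0.01 for the difference of differences, the values against which the gene lists are read. Pairs of values joined by "and" give the tumor difference first and the culture difference second, on the log2 scale, each ± its SE.

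**Figure D2:**
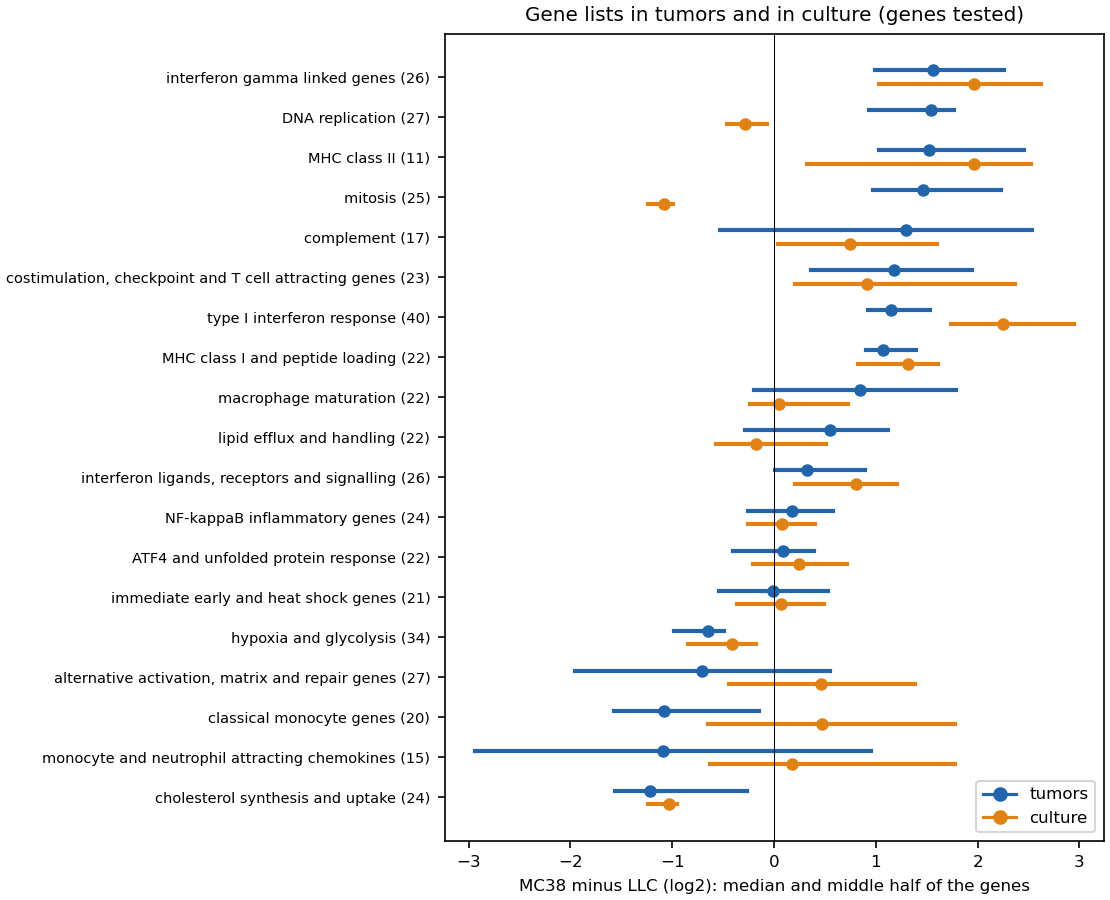
Each row is a gene list with the number of genes tested; dots are the median log2 difference between MC38 and LLC in tumors (blue) and in culture (orange), and bars span the interquartile range of the genes. The medians of the interferon and cholesterol lists lie on the same side of 0 in both settings, and those of the mitosis and DNA replication lists on opposite sides.

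Type I interferon response genes were higher in MC38 in both settings. All 40 tested were called higher in tumors (median 1.15) and in culture (median 2.24). The culture difference was the larger one: 34 of 40 had a lower difference of differences (median -1.30) and none a higher one. Irf7 (chr7:141263183-141266499), the transcription factor that amplifies interferon production, was at 2639, 2775, 2596 and 2655 CPM in MC38 tumors and 742, 703, 801 and 739 CPM in LLC tumors. It was at 1185, 1235 and 982 CPM after MC38 supernatant, 71.5, 75.1 and 70.0 CPM after LLC supernatant and 98.2, 75.5, 98.4 and 101 CPM in control cultures. MC38 tumor cells were highest and LLC supernatant cells lowest, LLC tumor cells stood far above LLC supernatant cells, and no groups overlapped. The tumor difference was 1.84 ± 0.07, the culture difference 3.97 ± 0.09 and the difference of differences -2.14 ± 0.11 (SE, adjusted p = 1.26e-09).

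All 40 genes had a higher fitted level in LLC tumor monocytes than in LLC supernatant cells, and 39 of 40 in MC38 tumor monocytes than in MC38 supernatant cells, with medians of 2.25 and 1.20 on the log2 scale. These 2 values compare sorted tumor cells with cultured cells and were not tested. The median level of the 40 genes, as log2(CPM + 1), was 8.89 in MC38 tumors, 7.89 in LLC tumors, 7.91 after MC38 supernatant, 5.74 after LLC supernatant and 5.56 in control cultures. With MC38 supernatant 40 of 40 genes lay above the control mean, and with LLC supernatant 26 of 40. The share of all genes above it was not computed.

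**Figure D3:**
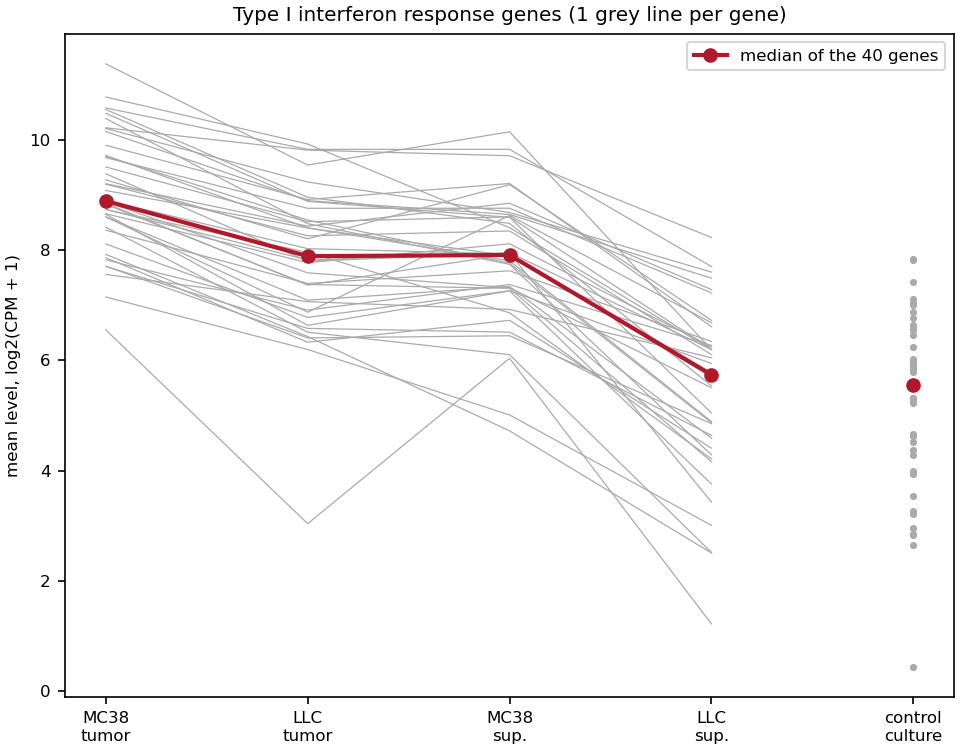
Grey lines join the mean level, as log2(CPM + 1), of each of 40 type I interferon response genes in 4 groups, grey dots give control culture, and red marks the median. The median of LLC tumor monocytes (7.89) stands beside that of MC38 supernatant cells (7.91), and that of LLC supernatant cells (5.74) beside control culture (5.56).

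Members differed in how far the settings were apart. Oasl1, an oligoadenylate synthetase-like protein, had a tumor difference of 1.59 ± 0.08 and a culture difference of 4.65 ± 0.10. Ifit3, which binds foreign RNA caps, had 1.60 ± 0.07 and 3.59 ± 0.09, and the ubiquitin-like modifier Isg15 1.91 ± 0.09 and 3.53 ± 0.12. Other members were closer: Parp9, an ADP-ribosyltransferase family member, had 1.34 ± 0.06 and 1.33 ± 0.07, and a difference of differences of 0.01 ± 0.09. Herc6, Parp14, Bst2 and Eif2ak2 were also among the members with no called difference of differences, and intervals of this width still allow small ones.

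Promoters were read for the interferon-stimulated response element, the DNA motif bound by interferon-activated transcription factor complexes, searched as GAAA, any 2 bases and GAAA on both strands in the RefSeq windows from 250 bases before to 50 after each transcription start (GRCm38.p6). These promoter stretches are shown because the interferon lists, higher in MC38 in both settings, hold the motif often. Only the copy nearest the start is in capitals, written on the strand of the gene, 5′ to 3′. The promoters of Isg15, Oas1a and Irgm1 hold 3, 2 and 2 copies, and the further copies lie partly or wholly in small letters.
Isg15 (chr4:156200850-156200909, - strand): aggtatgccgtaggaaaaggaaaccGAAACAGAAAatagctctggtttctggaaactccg
Oas1a (chr5:120907505-120907564, - strand): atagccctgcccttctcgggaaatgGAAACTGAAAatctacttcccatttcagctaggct
Irgm1 (chr11:48871410-48871469, - strand): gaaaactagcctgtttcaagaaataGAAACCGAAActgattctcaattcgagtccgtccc
The motif nearest the start began 66 bases before the transcription start in Isg15, 14 bases before it in Oas1a and 24 bases before it in Irgm1, an interferon-inducible GTPase. Of the genes tested, 10169 had a promoter in the table, and 4.13% of them held the motif at least once, against 3.99% of all genes in that table. It was found in 53.6% of the type I interferon list (15 of 28 with a promoter) and in 58.8% of the interferon gamma linked list (10 of 17). By class it was found in 9.76% of the reproduced genes higher in MC38, in 20.2% of those whose difference was larger in culture, in 2.35% of tumor only genes higher in MC38 and in 4.39% of opposite genes higher in MC38 tumors. A match describes these letters and shows no binding, and near-identical genes share promoters.

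Genes linked to interferon gamma were also reproduced, with exceptions. Of 26 tested, 26 were higher in MC38 tumors (median 1.57) and 23 after MC38 supernatant (median 1.96), and the difference of differences was lower in 17 and higher in 6 (median -0.80). Guanylate-binding and immunity-related GTPases, which attack intracellular vacuoles, were mostly larger in culture: Gbp4 had 2.06 ± 0.14 in tumors and 5.90 ± 0.30 in culture, and Iigp1 4.07 ± 0.14 and 6.19 ± 0.28. Gbp8 went the other way, with 3.38 ± 0.15 in tumors and 0.60 ± 0.23 in culture. Irf1, an early interferon-induced factor, had 1.23 ± 0.12 in tumors and 1.23 ± 0.14 in culture (difference of differences -0.00 ± 0.17).

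Cxcl9, Nos2 and Ido1 of that list were higher in MC38 tumors with no called culture difference. Ido1 was low throughout, at 1.30 and 0.0479 CPM in MC38 and LLC tumors and at 0.0994 and 0.0477 CPM after MC38 and LLC supernatant. Cxcl9 (chr5:92321331-92328079), a chemokine that draws activated T cells and is a marker of interferon gamma, was at 318, 286, 459 and 451 CPM in MC38 and 81.6, 67.2, 76.0 and 84.8 CPM in LLC tumors. In culture it stayed under 1 CPM in every library, with 0.0389, 0.0789 and 0.205 CPM with MC38 and 0.224, 0.171 and 0.148 CPM with LLC supernatant. The tumor groups did not overlap, as required of the genes listed by size below, and the culture groups did. Cxcl9 had a difference of differences of 2.95 ± 0.89 (SE, adjusted p = 0.0168), and of 2.78 with no call (adjusted p = 0.0619) without LLC supernatant replicate 1. Nos2, the inducible nitric oxide synthase, was at 139.9 against 37.5 CPM in tumors and at 5.67 against 8.67 CPM in culture, with a difference of differences of 2.51 ± 0.40 (SE, adjusted p = 0.000402). Cxcl10, a related chemokine, was reproduced with 1.18 ± 0.10 in tumors and 3.68 ± 0.19 in culture, at mean levels of 1485, 655, 11.5 and 0.898 CPM in MC38 tumors, LLC tumors, MC38 and LLC supernatant. Markers of T and NK cells (14 genes) summed to 13.7 to 17.2 CPM in MC38 tumors, 4.38 to 5.0 CPM in LLC tumors, 1.74 to 2.34 CPM after MC38 supernatant and 3.89 to 4.07 CPM after LLC supernatant, with Cd3e and Cd3g at 0 counts in LLC tumors, and 2 and 5 markers at 0 counts after MC38 and LLC supernatant. Their part in the result was not tested.

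Among interferon ligands, receptors and signal proteins (26 tested), 16 were higher and 2 lower in MC38 tumors, and 21 higher and 2 lower after MC38 supernatant (medians 0.32 and 0.81). In 15 the difference of differences was lower and in 1 higher. Tlr3, a sensor of double-stranded RNA, was reproduced at 2.23 ± 0.14 and 2.34 ± 0.16. Irf5, Jak2 and Irf2 were called in culture only, with culture differences of 0.91 ± 0.07, 0.83 ± 0.08 and 0.57 ± 0.07 and tumor differences of -0.07, 0.08 and -0.03. Ifnb1, which encodes interferon beta, was at 0.506, 0.513 and 0.376 CPM after MC38 supernatant and at 0 counts in the 3 LLC supernatant libraries, at least 12.9-fold higher when the LLC group is set to a floor of 3 counts in all. In tumors it was at 0.142, 0.700, 0.578 and 0.436 CPM in MC38 and 2.16, 1.02, 0.286 and 0.869 CPM in LLC, with overlapping libraries.

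Transcripts of genes for antigen presentation by MHC class I were mostly higher in MC38 in both settings. Of 22 genes, 21 were higher in MC38 tumors (median 1.08) and 20 after MC38 supernatant (median 1.31). The difference of differences was lower in 9 and higher in 3 (median -0.22). Without MC38 supernatant replicate 3 it was lower in 12 and higher in 1 (median -0.35). B2m, the invariant chain of class I, had 1.32 ± 0.07 in tumors and 1.33 ± 0.08 in culture, with a difference of differences of -0.01 ± 0.10. H2-K1, a classical class I heavy chain, had 1.69 ± 0.07 and 1.54 ± 0.08. Tap1, which carries peptides into the endoplasmic reticulum, differed more in culture (1.09 ± 0.07 and 1.64 ± 0.08). H2-Q6 and H2-Q7 are near-identical to each other and uncertain. Calr, a chaperone, was called in tumors only, and Erap1, a peptide-trimming protease, in culture only.

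Of 11 MHC class II genes, 10 were higher in MC38 tumors (median 1.52) and 7 higher and 1 lower after MC38 supernatant (median 1.96). H2-Aa, the class II alpha chain, was at 2651, 2241, 3111 and 3215 CPM in MC38 and 541, 515, 532 and 443 CPM in LLC tumors, and at 13.7, 14.5 and 11.7 CPM with MC38 and 1.27, 2.97 and 1.30 CPM with LLC supernatant. The log2 differences of 2.47 ± 0.17 and 2.83 ± 0.26 left a difference of differences of -0.36 ± 0.31, which was not called, and levels in culture were more than 100 times lower than in the matching tumor groups. Cd74, the invariant chain, was reproduced too (1.75 ± 0.10 and 1.96 ± 0.12). It was at 6694 and 1985 CPM in MC38 and LLC tumors and at 97.6 and 25.1 CPM after MC38 and LLC supernatant. Ciita, the regulator of both genes, had 1.5 ± 0.14 and 2.66 ± 0.34. Its difference of differences of -1.16 ± 0.38 (SE, adjusted p = 0.0251) lost its call in 5 of the alternative fits, among them that without MC38 supernatant replicate 3 (-1.27, adjusted p = 0.0799). H2-DMb1, which loads peptides onto class II, was called in tumors only (1.52 ± 0.08 against 0.03 ± 0.09). Dendritic cell markers (12 genes) summed to 51.3 to 61.7 CPM in MC38 tumors and 15.6 to 19.7 CPM in LLC tumors, with Siglech at 0 counts in LLC tumors. They summed to 9.74 to 39.1 CPM after MC38 supernatant, highest in replicate 3, and to 2.67 to 2.84 CPM after LLC supernatant. Their part in the class II result was not tested.

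Single genes with the largest reproduced rises were Lipg, Apol9a, Pou3f1, Iigp1, Cd300e and Spon1. Genes listed by size, here and below, were picked only where libraries did not overlap in each setting called, so their separation is no result. Lipg, an endothelial lipase, had a tumor difference of 5.11 ± 0.19 and a culture difference of 8.10 ± 0.34. Cd300e (chr11:115051917-115066676), an activating receptor of monocytes, was at 86.9, 108, 70.8 and 62.8 CPM in MC38 and 5.56, 5.94, 5.14 and 3.75 CPM in LLC tumors. In culture it was at 4.59, 5.01 and 4.30 CPM with MC38 and 0.299, 0.205 and 0.296 CPM with LLC supernatant. The groups did not overlap, and the differences of 4.01 ± 0.18 and 4.10 ± 0.30 left a difference of differences of -0.09 ± 0.30. Pou3f1, an octamer-binding transcription factor, had 4.51 ± 0.27 and 6.16 ± 0.35. Spon1, a secreted matrix protein, was at 261 and 18.4 CPM in MC38 and LLC tumors, 35.3, 35.5 and 31.9 CPM after MC38 supernatant and 0 counts in all LLC supernatant libraries, so its culture difference is bounded at least 948-fold higher. Apol9a is near-identical to Apol9b and uncertain.

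The largest reproduced falls were those of Hal, F5, Mmp9, Serpinb2, F13a1 and Alox5. F5 (chr1:164151835-164220277), coagulation factor V, was at 6.81, 5.40, 7.83 and 11.7 CPM in MC38 and 74.2, 82.4, 70.0 and 89.4 CPM in LLC tumors. It was at 3.0, 2.52 and 2.36 CPM after MC38 supernatant, 21.4, 21.1 and 22.2 CPM after LLC supernatant and 83.0, 79.7, 106 and 98.8 CPM in control cultures. Both settings had the lower values in MC38 with no overlap, as the choice of genes required, and the differences were -3.31 ± 0.18 and -3.04 ± 0.22. F13a1, the A subunit of the clot-stabilizing factor XIII, had -2.70 ± 0.12 and -2.28 ± 0.14. Hal, histidine ammonia-lyase, had -3.89 ± 0.31 and -3.76 ± 0.32. Alox5, which starts leukotriene synthesis, had -2.49 ± 0.16 and -2.25 ± 0.16, Serpinb2, an inhibitor of plasminogen activators, -2.95 ± 0.23 and -3.80 ± 0.27, and Mmp9, a gelatinase, -3.03 ± 0.22 and -4.22 ± 0.24. Serpinb2 and Mmp9 were at 0.0387 and 0.411 CPM in control cultures and at 37.2 and 54.4 CPM after LLC supernatant, while F5, F13a1 and Hal were high in control cultures too (91.8, 2857 and 26.3 CPM).

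Transcripts of cholesterol synthesis and uptake genes were mostly lower in MC38 in both settings. Of 24 genes, 18 fell in tumors (median -1.22) and 23 in culture (median -1.03), none rose, and 18 were reproduced. Their difference of differences was higher in 9 and lower in 10 (median 0.04). Sqle (chr15:59315092-59331193), squalene epoxidase, was at 11.5, 10.1, 12.6 and 11.2 CPM in MC38 and 58.5, 55.9, 59.4 and 55.6 CPM in LLC tumors, and at 69.2, 64.0 and 67.1 CPM with MC38 supernatant, 157, 157 and 156 CPM with LLC supernatant and 8.69, 9.85, 9.05 and 10.2 CPM in control cultures. The groups were apart in both settings, and both supernatants stood above control culture. Its tumor difference of -2.34 ± 0.06 was larger than the culture difference of -1.23 ± 0.06, with a difference of differences of -1.11 ± 0.09 (SE, adjusted p = 1.16e-07). Srebf2, the transcription factor of the pathway, had -1.34 ± 0.07 and -0.74 ± 0.08, and Stard4, a cholesterol carrier, -1.96 ± 0.11 and -1.92 ± 0.13. The steps encoded by Acat2, Mvk, Pmvk, Tm7sf2 and Dhcr7 were called in culture only. Dhcr7, the last enzyme of one branch, had -1.14 ± 0.11 in culture and -0.15 ± 0.10 in tumors. Of the desaturases that make monounsaturated fatty acids, Scd2 was reproduced (-2.20 ± 0.10 and -2.07 ± 0.11), whereas Scd1 was lower in culture only (-2.11 ± 0.51) with a tumor value of 1.31 ± 0.58.

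Glycolysis and hypoxia genes were lower in MC38 as well. Of 34 genes, 31 fell in tumors and none rose (median -0.65). In culture 26 fell and 2 rose (median -0.41), and 25 genes were reproduced. A lower difference of differences was called in 13 and a higher one in 3 (median -0.22). Without MC38 supernatant replicate 3 these counts were 19 and 3 (median -0.31). Pgk1, a glycolytic kinase, had -0.99 ± 0.08 and -0.95 ± 0.09. Egln3, a prolyl hydroxylase induced by low oxygen, had -2.28 ± 0.15 and -1.63 ± 0.17. Slc2a1, the glucose transporter, fell in tumors only (-0.98 ± 0.08 against -0.14 ± 0.09), as did Tpi1, Slc16a3, Higd1a and Kdm3a. Vegfa, a vessel growth factor, was reproduced and larger in culture (-1.03 ± 0.07 and -1.86 ± 0.09), at 982 and 2002 CPM in tumors against 59.2 and 214 CPM in culture.

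Of 22 lipid efflux and handling genes, 11 rose and 6 fell in MC38 tumors (median 0.55), beside 31.9% and 24.2% of all genes. After MC38 supernatant 8 rose and 10 fell (median -0.17), beside 26.7% and 21.2% of all genes. The difference of differences was higher in 10 and lower in 4 (median 0.16), beside 21.5% of all genes in each direction. Of 3 nuclear receptors in the list, 2 were reproduced and larger in tumors: Pparg had 2.79 ± 0.13 and 1.61 ± 0.14, and Nr1h3, which encodes LXR alpha, 2.20 ± 0.14 and 1.60 ± 0.17. Nr1h2, which encodes LXR beta, was not called in either setting (0.05 and -0.13). Of the cholesterol exporters, Abcg1 rose in both settings (1.70 ± 0.08 and 0.50 ± 0.09) and Abca1 fell in both (-0.49 and -0.63). Apoe, Pltp, Lipa, Cd36 and Fabp5 went in opposite directions. Apoe, the lipoprotein that accepts exported cholesterol, had 0.79 ± 0.07 in tumors and -0.33 ± 0.08 in culture, and Fabp5, a fatty acid carrier, 0.71 ± 0.13 and -0.92 ± 0.15, with overlapping tumor libraries. Nr1h3 had a difference of differences of 0.60 ± 0.21 (SE, adjusted p = 0.0353), a call lost in 13 of the alternative fits.

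C1q genes differed mainly in tumors. C1qa (chr4:136895916-136898844), a chain of the complement recognition molecule made by mature macrophages, was at 1261, 1415, 1152 and 1135 CPM in MC38 and 196, 150.4, 205 and 152 CPM in LLC tumors. It was at 312, 327 and 289.8 CPM after MC38 supernatant, 254, 254 and 256 CPM after LLC supernatant and 0.0308, 0.178, 0.169 and 0.0881 CPM in control cells. Both supernatants stood far above control, and their libraries were close but did not overlap. The tumor difference was 2.82 ± 0.11, the culture difference 0.28 ± 0.11 (SE, adjusted p = 0.0524), and the difference of differences 2.54 ± 0.15 (SE, adjusted p = 8.09e-09). Without MC38 supernatant replicate 3 the culture difference was called too (0.34, adjusted p = 0.0438). C1qb and C1qc had tumor differences of 2.38 ± 0.08 and 2.53 ± 0.09 and culture differences of 0.06 ± 0.09 and 0.04 ± 0.10. Of 22 macrophage maturation genes, 13 rose and 4 fell in MC38 tumors (median 0.84), 9 rose and 5 fell after MC38 supernatant (median 0.05), and the difference of differences was higher in 12 and lower in 6 (median 0.72). The shares of all genes tested were 31.9% and 24.2% in tumors, 26.7% and 21.2% in culture, and 21.5% in each direction for the difference of differences. Axl, a receptor for dying cells that interferon induces, was reproduced and larger in culture (1.74 ± 0.10 and 4.31 ± 0.14). Mertk, its relative, had 1.81 ± 0.10 in tumors and -0.28 ± 0.10 in culture. Cx3cr1, the fractalkine receptor, went in opposite directions (-0.76 ± 0.20 in tumors, where libraries overlapped, and 3.28 ± 0.29 in culture).

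Among single genes by size, tumor only rises were led by Gbgt1, Hpgds, Mmp27, Cxcl9, Brca1 and Syngr1. Hpgds, a prostaglandin D synthase, was at 37.4 and 4.55 CPM in MC38 and LLC tumors and at 76.9 and 104 CPM after MC38 and LLC supernatant, with a difference of differences of 3.50 ± 0.25 (SE, adjusted p = 2.62e-07). Gbgt1, a glycosyltransferase of glycolipids, had a tumor difference of 4.12 ± 0.21 and a culture difference of -0.35 ± 0.22. Brca1, a DNA repair gene that rises in dividing cells, had 2.55 ± 0.20 and -0.40 ± 0.17. Mmp27 and Syngr1 were higher in culture under both supernatants (134 and 148 CPM, and 38.2 and 55.7 CPM) than in MC38 tumors (1.86 and 10.7 CPM).

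Ccl24, Hspa1b, Vcan, Sdc1, Plcb1 and Ccdc88c led the tumor only falls. Ccl24, an eosinophil-attracting chemokine, was at 0.520, 1.55, 0.736 and 0.629 CPM in MC38 and 36.8, 39.2, 35.5 and 135 CPM in LLC tumors, where replicate 4 was the highest. In culture it was at 1.01, 0.75 and 1.06 CPM with MC38 and 0.411, 0.752 and 0.593 CPM with LLC supernatant, with overlapping libraries. Ccl24 had a difference of differences of -6.84 ± 0.99 (SE, adjusted p = 0.000232), and of -6.11 without LLC tumor replicate 4. Vcan, the proteoglycan versican, had -3.0 ± 0.24 in tumors and 0.46 ± 0.27 in culture. Sdc1, a cell-surface proteoglycan of epithelium and plasma cells, had -2.37 ± 0.43 and 1.06 ± 0.59, with a difference of differences of -3.43, and -2.17 without MC38 supernatant replicate 3. Epithelium markers (10 genes) summed to 6.44 to 8.75 CPM in MC38 tumors and 40.9 to 66.0 CPM in LLC tumors, with Krt19, Cldn3 and Cldn4 at 0 counts in the latter and Cldn3 and Cldn7 in the former, and to 1.89 to 4.17 CPM in the treated cultures, and their part in the Sdc1 result was not tested.

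Fn1 (chr1:71585473-71653280), which encodes fibronectin, showed how 1 library can set a class. It was at 471, 390.0, 463 and 506 CPM in MC38 and 10630, 11080, 11270 and 8636 CPM in LLC tumors. In culture it was at 172, 194 and 2259 CPM after MC38 supernatant, 284, 283 and 289.8 CPM after LLC supernatant and 9556, 9278, 9546 and 8444 CPM in control cells. MC38 supernatant replicate 3, the library with connective tissue transcripts, was the one high value of its group. With it, Fn1 was lower in tumors only (tumor difference -4.51 ± 0.78, culture difference 1.62 ± 0.80). Without it, the culture difference was -0.63 (adjusted p = 0.000246), in the direction of the tumors, and the difference of differences changed from -6.12 to -3.92 (adjusted p = 1.12e-11). Both supernatants and MC38 tumors stood far below control culture and LLC tumors.

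The list of heat shock and immediate early genes (21 tested) had 5 higher and 6 lower in MC38 tumors (median -0.01), a share near the 56.1% of all genes called there. Hspa1b, an inducible heat shock protein near-identical to Hspa1a and uncertain between them, was at 198, 675, 227 and 243 CPM in MC38 and 1023, 994, 1656 and 1264 CPM in LLC tumors and under 4 CPM in the 6 treated cultures. MC38 replicate 2 was the high library of its group, and the groups did not overlap, as required of genes listed by size. The tumor difference was -1.88 ± 0.38 and the culture value 2.17 ± 0.82. Of 24 genes of the NF-kappaB inflammatory list, 12 rose and 4 fell in MC38 tumors (median 0.18), beside 31.9% and 24.2% of all genes, and 7 rose and 6 fell in culture (median 0.07), beside 26.7% and 21.2% of all genes. Tnf and its feedback inhibitor Tnfaip3 rose in tumors only (1.77 ± 0.17 and 1.0 ± 0.07, with 0.37 ± 0.21 and -0.20 ± 0.09 in culture). Il1rn, which encodes the interleukin-1 receptor antagonist, was reproduced and larger in tumors (1.47 ± 0.08 and 0.26 ± 0.10). Il1b had no called tumor difference (5358 ± 657 against 4844 ± 375 CPM, SD, n = 4 each) and was higher after MC38 supernatant (2.34 ± 0.22) at more than 1000 times lower levels (3.38 ± 0.119 against 0.671 ± 0.259 CPM, n = 3 each).

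Chemokines for monocytes and neutrophils split by gene. Of 15 genes, 5 rose and 9 fell in MC38 tumors (median -1.09), beside 31.9% and 24.2% of all genes. After MC38 supernatant 6 rose and 3 fell (median 0.18), beside 26.7% and 21.2% of all genes. The difference of differences was lower in 10 and higher in 2 (median -1.61), beside 21.5% of all genes in each direction. Ccl8, Ccl12, Ccl2 and Ccl7, CC chemokines that draw monocytes, were reproduced. Ccl8 was at 13.7 and 1.65 CPM in tumors and at 608, 619 and 498 CPM with MC38 and 1.53, 2.05 and 1.67 CPM with LLC supernatant, with differences of 3.10 ± 0.19 and 8.35 ± 0.20. Ccl7 had 1.88 ± 0.13 and 2.19 ± 0.15. Ccl9, another CC chemokine, and Pf4, the platelet chemokine CXCL4, fell in tumors only (-1.99 ± 0.09 and -1.60 ± 0.17, with 0.18 ± 0.10 and 0.05 ± 0.18 in culture). Ppbp, a platelet chemokine precursor, fell in both and more in tumors (-5.74 ± 0.40 and -1.09 ± 0.29). The neutrophil-attracting Cxcl3 went in opposite directions, at 11.6, 11.3, 6.94 and 11.5 CPM in MC38 and 122, 213, 102 and 294 CPM in LLC tumors and at 201, 199 and 152 CPM with MC38 and 74.2, 71.5 and 81.5 CPM with LLC supernatant. Neither pair of groups overlapped, as required of genes listed by size, and the differences were -4.14 ± 0.35 and 1.28 ± 0.35.

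Of 23 costimulatory, checkpoint and T cell attracting genes, 15 rose and 4 fell in MC38 tumors (median 1.18) and 17 rose and 2 fell after MC38 supernatant (median 0.91). Cd274, which encodes PD-L1, had 1.41 ± 0.12 in tumors and 0.91 ± 0.14 in culture. Its called difference of differences (0.50 ± 0.18) was lost in 14 of the alternative fits. Cxcl16 and Ccl5, ligands of T cell chemokine receptors, were reproduced (2.42 ± 0.12 and 1.84 ± 0.14, 3.46 ± 0.18 and 3.05 ± 0.37). Cd40, the receptor for T cell help, rose in MC38 tumors (2.06 ± 0.10) and fell after MC38 supernatant (-0.68 ± 0.12), while Cd80 and Il18 did the reverse (-0.51 ± 0.14 and 0.89 ± 0.18, -0.45 ± 0.08 and 1.10 ± 0.10). Of 17 complement genes, 9 rose and 5 fell in tumors (median 1.30) and 9 rose and 2 fell in culture (median 0.75). Of all genes tested, 31.9% rose and 24.2% fell in tumors, and 26.7% rose and 21.2% fell in culture. Cfb, factor B of the alternative pathway, was reproduced and larger in culture (2.95 ± 0.10 and 7.52 ± 0.17).

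**Figure D4:**
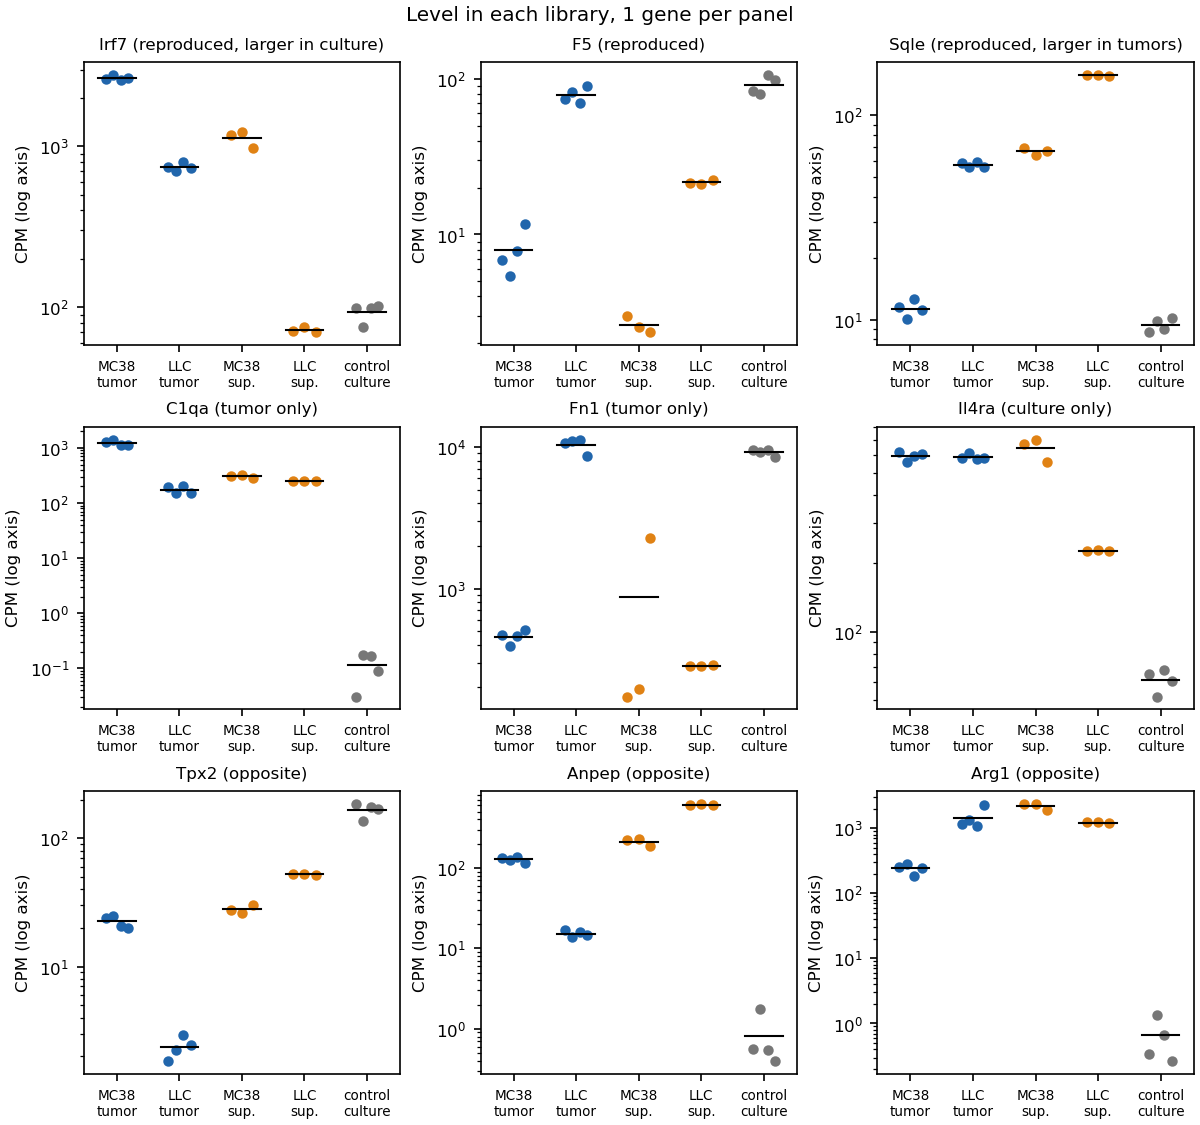
Each panel shows 1 gene, with a point for every library, a bar for the group mean and a log CPM axis; blue marks tumors, orange cultures with supernatant (sup.) and grey control cultures, and the class stands in the title. Irf7, F5 and Sqle have the same order of MC38 and LLC in both settings, C1qa (culture) and Il4ra (tumors) are close to level in 1 setting, Fn1 shows the single high MC38 supernatant library, and Tpx2, Anpep and Arg1 turn.

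Genes called in culture only varied in their level in tumors. Il4ra (chr7:125552271-125579474), the interleukin-4 receptor alpha chain, was at 618, 560.3, 598 and 610.0 CPM in MC38 and 584, 611, 578 and 581 CPM in LLC tumors, which overlapped. It was at 672, 703 and 559.6 CPM with MC38 supernatant, 226, 228 and 228 CPM with LLC supernatant and 65.1, 51.7, 67.9 and 60.8 CPM in control cells. LLC supernatant cells were low and apart from the tumor and MC38 supernatant cells, and the difference of differences was -1.48 ± 0.10 (SE, adjusted p = 1.67e-08). Fxyd2, a subunit regulating the sodium pump, was at 35.8, 36.4 and 36.1 CPM after LLC supernatant, 1.99, 1.97 and 2.36 CPM after MC38 supernatant and under 1 CPM in every tumor library (culture difference -4.10 ± 0.23, difference of differences 4.05 ± 0.40). Abcb4, a phospholipid exporter, had -2.69 ± 0.16 in culture and 0.06 ± 0.15 in tumors, Smpd3, a neutral sphingomyelinase, -3.71 ± 0.33 and -0.46 ± 0.31, and Tmod1, an actin-capping protein, -2.72 ± 0.34 and 0.20 ± 0.51. Gstm2, a glutathione transferase, had -1.95 ± 0.36 and 0.82 ± 0.53.

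Among the 6 largest culture only rises, Pmepa1, Tmem176a, Tmem176b and Pald1 had their highest culture level in MC38 supernatant replicate 3. The part of its connective tissue transcripts in these values was not tested. Pmepa1, a target and inhibitor of TGF-beta signalling, was at 4.17, 4.26 and 48.7 CPM after MC38 supernatant and 0.0373, 0.0683 and 0.148 CPM after LLC supernatant. Its difference of differences was -7.48 with replicate 3 and -5.34 without it (adjusted p = 4.33e-05). The membrane proteins Tmem176a and Tmem176b changed from -4.11 and -3.75 to -1.96 and -1.15. The call of Tmem176b was lost in 13 of the alternative fits. Pald1, a phosphatase-like protein, had -3.79 and -3.38. Ltf and Ngp, proteins of neutrophil granules, were higher after MC38 than LLC supernatant (3.60 ± 0.72 and 3.65 ± 0.64), below control culture (12.4 and 23.1 CPM after MC38 supernatant against 29.5 and 172 CPM), and under 1 CPM on average in tumors. Timp1, an inhibitor of matrix proteases, was called in culture only with replicate 3 (difference of differences -6.20) and in opposite directions without it (-3.43).

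Cell cycle genes went in opposite directions as a group. Of 25 mitosis genes, 24 rose and 1 fell in MC38 tumors (median 1.46), and 24 fell and none rose after MC38 supernatant (median -1.08). All 25 had a higher difference of differences (median 2.72), and 23 were in the opposite class. Tpx2 (chr2:152847964-152895321), which activates Aurora A on the spindle, was at 24.1, 24.9, 20.8 and 20.1 CPM in MC38 and 1.83, 2.24, 2.93 and 2.44 CPM in LLC tumors. It was at 27.7, 26.1 and 30.2 CPM with MC38 supernatant, 53.1, 52.6 and 52.2 CPM with LLC supernatant and 185, 138, 175 and 171 CPM in control cells. No groups overlapped: MC38 was high in tumors and low in culture, and control culture was the highest. The tumor difference was 3.24 ± 0.11 (SE, adjusted p = 7.01e-12), the culture difference -0.91 ± 0.11 (SE, adjusted p = 4.98e-06) and the difference of differences 4.15 ± 0.16 (SE, adjusted p = 7.71e-11). Top2a, which untangles replicated DNA, had 2.35 ± 0.11 and -1.08 ± 0.10, Mki67, a general marker of cycling cells, 1.21 ± 0.14 and -1.83 ± 0.14, and the kinetochore motor Cenpe 2.52 ± 0.11 and -1.01 ± 0.11. The exceptions were Cdc20, an activator of the anaphase complex, with 2.27 ± 0.26 in tumors and -0.51 ± 0.24 in culture, and the centromere histone Cenpa, lower in both (-0.51 ± 0.10 and -1.54 ± 0.12).

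DNA replication genes rose in MC38 tumors too, with a culture median nearer to 0. Of 27 genes, 27 rose in tumors (median 1.54), while 13 fell and 1 rose after MC38 supernatant (median -0.29). In 25 the difference of differences was higher and in none lower (median 1.73), with 12 genes tumor only and 13 opposite. Mcm5, a subunit of the replication helicase, had 1.71 ± 0.09 and -0.36 ± 0.09. Rrm2, a subunit of ribonucleotide reductase, had 2.41 ± 0.11 and -0.27 ± 0.11. Tyms, the thymidylate synthase, rose in both (0.30 ± 0.07 and 0.22 ± 0.08), a culture call lost in 10 of the alternative fits. Under both supernatants 25 of 25 mitosis genes and 25 of 27 replication genes lay below the control mean. The share of all genes below it was not computed. The median mitosis level, as log2(CPM + 1), was 2.54 in MC38 tumors, 1.44 in LLC tumors, 3.91 after MC38 supernatant, 5.02 after LLC supernatant and 7.02 in control cultures.

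**Figure D5:**
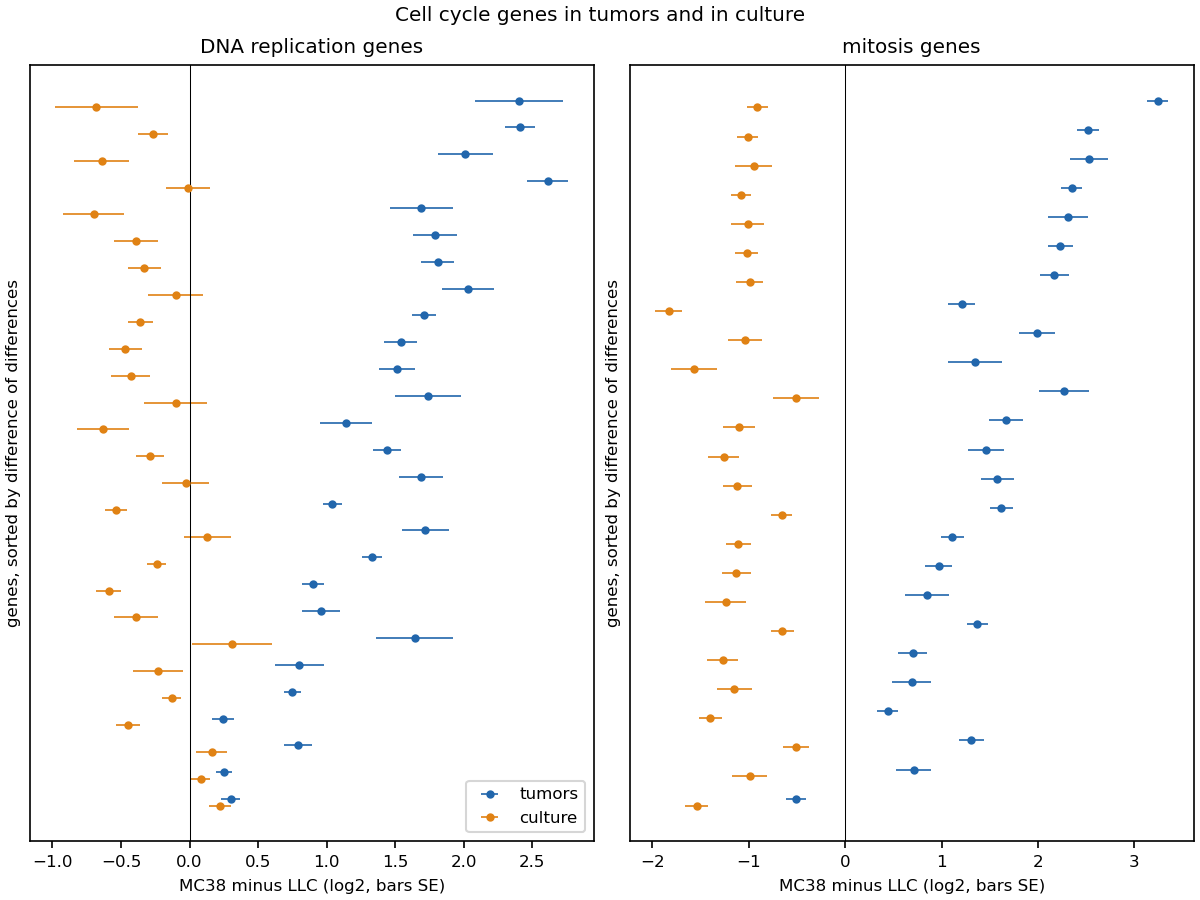
Each row is 1 unlabelled gene of the DNA replication list (left, 27 genes) or the mitosis list (right, 25 genes), sorted by the difference of differences, with the log2 difference between MC38 and LLC in tumors (blue) and in culture (orange) and bars of 1 SE. Blue points lie right of 0 for every gene but Cenpa, and orange points lie left of 0 for every mitosis gene.

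The cell cycle homology region, a promoter element through which the DREAM complex holds late cell cycle genes silent, was searched by its core TTTGAA on both strands. It is shown for mitosis genes of the opposite and tumor only classes because it was found in 76.2% of the mitosis list (16 of 21 with a promoter) against 14.8% of the genes tested and 20.2% of all genes in the promoter table. The capitals mark the copy nearest the start on the strand of the gene, where TTCAAA is the same core on the other strand. The promoters of Top2a and Cdk1 hold 2 copies and those of Ube2c and Cdc20 hold 1.
Top2a (chr11:99024180-99024239, - strand): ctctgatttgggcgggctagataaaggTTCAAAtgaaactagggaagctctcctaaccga
Cdk1 (chr10:69352895-69352954, - strand): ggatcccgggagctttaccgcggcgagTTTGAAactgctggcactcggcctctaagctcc
Ube2c (chr2:164769873-164769932, + strand): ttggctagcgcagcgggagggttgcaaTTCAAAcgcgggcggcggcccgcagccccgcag
Cdc20 (chr4:118437329-118437388, - strand): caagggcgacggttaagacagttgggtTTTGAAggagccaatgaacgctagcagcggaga
The core began 23 bases before the start in Top2a, 15 bases before it in the mitotic kinase Cdk1, 29 bases before it in the ubiquitin-conjugating enzyme Ube2c and 18 bases before it in Cdc20. It was found in 9.52% of the DNA replication list (2 of 21), in 21.4% of opposite genes higher in MC38 tumors and in 11.3% of those lower. A run of 6 letters occurs often by itself, and no binding was measured.

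The largest opposite genes higher in MC38 tumors were Lama3, Gpr162, Rapsn, Cadm1, Anpep and Hvcn1. Anpep (chr7:79821803-79848210), the aminopeptidase CD13, was at 133, 127, 135 and 116 CPM in MC38 and 16.8, 13.8, 15.9 and 14.8 CPM in LLC tumors, and at 219.7, 229 and 188 CPM with MC38 supernatant, 604, 621 and 599 CPM with LLC supernatant and 0.555, 1.78, 0.540 and 0.397 CPM in control cells. The groups did not overlap, as the choice of genes required, and the differences were 3.07 ± 0.08 and -1.52 ± 0.08, with a difference of differences of 4.59 ± 0.12 (SE, adjusted p = 5.68e-13). Hvcn1, a voltage-gated proton channel, had 2.31 ± 0.13 and -2.0 ± 0.14, Cadm1, a cell adhesion molecule, 3.96 ± 0.31 and -2.23 ± 0.23, Gpr162, an orphan receptor, 5.77 ± 0.31 and -1.56 ± 0.26, and Rapsn, which clusters acetylcholine receptors, 3.48 ± 0.30 and -2.79 ± 0.23. Lama3, a laminin chain, was at 0 counts in the 4 LLC tumor libraries and at 0.162 CPM in MC38 tumors, at least 3.50-fold higher, and had -3.20 ± 0.26 in culture. Gpnmb, a glycoprotein of lipid-laden macrophages, was at 114, 144, 77.1 and 118 CPM in MC38 and 20.8, 32.9, 20.2 and 49.2 CPM in LLC tumors and at 6258, 6526 and 5303 CPM with MC38 and 13510, 13620 and 13290 CPM with LLC supernatant (1.86 ± 0.27 and -1.16 ± 0.29).

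The largest opposite genes lower in MC38 tumors were Lcn2, S100a8, Gja1, Cxcl14, Cxcl3 and Cd177. Lcn2, an iron-scavenging granule protein, had -2.52 ± 0.29 in tumors and 3.89 ± 0.35 in culture, S100a8, a calcium-binding alarmin, -2.64 ± 0.34 and 3.56 ± 0.38, and Cd177, a neutrophil surface protein, -2.11 ± 0.18 and 3.02 ± 0.30. Each was highest in control culture (65.5, 286 and 334 CPM) and lower after MC38 (14.1, 26.0 and 5.64 CPM) and LLC supernatant (0.936, 2.19 and 0.688 CPM). Of 14 neutrophil genes tested, 2 rose and 6 fell in MC38 tumors, beside 31.9% and 24.2% of all genes. After MC38 supernatant 12 rose and none fell, beside 26.7% and 21.2% of all genes. The difference of differences was lower in 12 (median -4.28), beside 21.5% of all genes. The neutrophil markers summed to 292.5 to 313.3 CPM in MC38 tumors, 238.2 to 319.8 CPM in LLC tumors, 1347 to 1713 CPM with MC38 and 1544 to 1591 CPM with LLC supernatant, so the sums overlapped between the supernatants, and no marker was at 0 counts in these groups. Their part in the result was not tested. Gja1, the gap junction protein connexin 43, was at 26.4, 22.7 and 109 CPM after MC38 supernatant, highest in replicate 3, and its difference of differences was -6.07 with and -5.03 without that library.

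Among repair genes and classical monocyte genes some turned and some did not. Of 27 alternative activation, matrix and repair genes, 8 rose and 14 fell in MC38 tumors (median -0.71), beside 31.9% and 24.2% of all genes. After MC38 supernatant 12 rose and 9 fell (median 0.46), beside 26.7% and 21.2% of all genes. The difference of differences was lower in 14 and higher in 4, beside 21.5% of all genes in each direction. Its median was -0.89, and -1.08 without MC38 supernatant replicate 3. Arg1 (chr10:24915207-24927470), arginase 1, was at 256, 282, 183 and 243 CPM in MC38 and 1158, 1344, 1093 and 2241 CPM in LLC tumors. It was at 2321, 2347 and 1897 CPM with MC38 supernatant, 1226, 1244 and 1183 CPM with LLC supernatant and 0.339, 1.36, 0.675 and 0.264 CPM in control cells. MC38 was low in tumors and high in culture with no overlap, at -2.60 ± 0.22 and 0.85 ± 0.24, with a difference of differences of -3.44 ± 0.33 (SE, adjusted p = 5.53e-06). Chil3, a chitinase-like protein of monocytes, had -1.88 ± 0.17 and 2.27 ± 0.20, Thbs1, the matrix protein thrombospondin 1, -2.03 ± 0.10 and 0.90 ± 0.11, and Tgfbi, a TGF-beta-induced matrix protein, -0.29 ± 0.07 and 1.82 ± 0.09. Il10, an anti-inflammatory cytokine, was reproduced (1.52 ± 0.12 and 2.41 ± 0.15).

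Of 20 classical monocyte genes, 4 rose and 15 fell in MC38 tumors (median -1.08), beside 31.9% and 24.2% of all genes. After MC38 supernatant 9 rose and 7 fell (median 0.48), beside 26.7% and 21.2% of all genes. In 15 the difference of differences was lower and in 1 higher (median -1.44), beside 21.5% of all genes in each direction. Ccr2, the receptor that brings monocytes out of the marrow, had -0.94 ± 0.11 in tumors and 1.27 ± 0.13 in culture. Plac8, a small cysteine-rich protein of immature myeloid cells, was at 1684, 1626, 1686 and 1945 CPM in MC38 and 1244, 1149, 1328 and 1453 CPM in LLC tumors, and at 617, 669.7 and 517 CPM with MC38 supernatant, 9.0, 10.2 and 9.55 CPM with LLC supernatant and 716, 578, 720.3 and 712 CPM in control cells. LLC supernatant cells alone were low, with differences of 0.42 ± 0.09 and 5.97 ± 0.13. Ms4a4c, a membrane protein of the same cells, followed it (1.28 ± 0.07 and 5.03 ± 0.10). Lyz2, lysozyme, was lower in MC38 in both (-1.56 ± 0.09 and -2.59 ± 0.10), and the integrin chain Itgam and the transcription factor Cebpb fell in tumors only (-1.25 ± 0.08 and -0.86 ± 0.12, with -0.14 ± 0.09 and 0.11 ± 0.14 in culture). Without MC38 supernatant replicate 3, Cebpb was called in opposite directions.

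Of 22 ATF4 and unfolded protein response genes, 5 rose and 7 fell in tumors (median 0.08) and 7 rose and 5 fell in culture (median 0.24), and 5 had a higher and 7 a lower difference of differences (median -0.06). Of all genes tested, 56.1% were called in tumors, 48% in culture and 43% for the difference of differences, so the list was near that share in tumors. Trib3, a pseudokinase induced by ATF4, went in opposite directions (1.13 ± 0.14 and -0.76 ± 0.15). Among immediate early genes and heat shock genes (21 tested), 5 were higher and 6 lower in MC38 tumors (median -0.01). After MC38 supernatant 7 were higher and 4 lower (median 0.07), and the difference of differences was higher in 4 and lower in 8 (median -0.20). These tumor and culture numbers were near the same shares of all genes. All 21 had a higher level in tumor than in cultured cells in both arms, with medians of 5.05 in the MC38 arm and 4.78 in the LLC arm on the log2 scale, which were not tested.

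Leaving out MC38 supernatant replicate 3 raised the difference of differences calls to 6345, the reproduced genes to 2991 and the opposite genes to 1568. Of the genes in each class with all libraries, 89.7% of the opposite, 75% of the tumor only, 70% of the culture only and 74.7% of the reproduced genes with no called difference of differences had the same class without it. The 48 genes named by class and size were chosen to keep their class without it. Of the other genes named, Irf5, Ifnb1, Erap1, Timp1, Ccl9, Cebpb, Cdc20 and Rrm2 became opposite, C1qa and Fn1 reproduced, and Gbp8 and Mertk tumor only.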

How the data were processed

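Libraries were made from 100 ng RNA with the stranded KAPA mRNA kit and amplified for 14 cycles, per the labels' protocols. The authors deposited 1 table of expected counts per Entrez gene, not scaled (14.5% of values not whole at a tolerance of 1e-06); no source used here names the aligner or counter, and CASAVA 1.8.2 and GRCm38 (mm10) come from the submitters' processing notes. Counts were rounded. Symbols came from RefSeq for 24375 of 24475 IDs.

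The 14 libraries were fitted in 1 model of 4 groups (edgeR 4.0.16, R 4.3.3; filterByExpr, TMM with factors 0.895 to 1.21, robust quasi-likelihood F-test, 2-sided, Benjamini-Hochberg over 12784 genes at 0.05; biological coefficient of variation 0.197; 10 residual degrees of freedom). Each SE was derived as the size of the log2 difference divided by the root of its F. Levels in CPM are on TMM-adjusted library sizes. Folds against a group with 0 counts are bounds that set that group to 3 counts. Steps were tested on simulated data. Replicates of every group differed by more than sampling noise.

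The members and lists were chosen with earlier results of these data known. Named were the 6 genes per class and direction largest by difference of differences (reproduced: by the smaller difference) with at least 10 CPM in 1 group, no overlap where called and the same class without MC38 supernatant replicate 3, plus up to 4 per list by smallest adjusted p and the sort antigens (unnamed gene models passed over); others were chosen after their values were seen. Alternatives were RLE, upper quartile and within-setting TMM scaling, no filter, a filter of 5 CPM in 3 libraries, DESeq2 1.42.0, limma 3.58.1 voom, all 34 libraries, a replicate block and each library left out. Figures used Python 3.11.15, pandas 2.3.3 and matplotlib 3.10.9. Some members of the lists are not reported here by name.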

Additional observations from a re-analysis of the deposited data

Results flagged for a closer look

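The comparison is itself a test of a difference between settings, so its main results are listed here once. A difference of differences was called in 5502 genes (43% of those tested), and 1203 (9.41%) were called in opposite directions. The median log2 difference of differences was 2.72 for the mitosis list, 1.73 for DNA replication, -1.30 for the type I interferon response and -1.44 for classical monocyte genes. The opposite genes of largest size were Lama3 (8.08, a fitted value that rests on a group at 0 counts and is no bound), Gpr162 (7.33), Rapsn (6.27), Cadm1 (6.20), Anpep (4.59) and Hvcn1 (4.31) on the side higher in MC38 tumors, and Lcn2 (-6.41), S100a8 (-6.20), Gja1 (-6.07), Cxcl14 (-5.75), Cxcl3 (-5.42) and Cd177 (-5.14) on the other.

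In 15 of 308 groups of 4 libraries of the genes named, 1 library lay far from the other three by the 95% limit for groups of this size; chance gives about 1 in 20. In MC38 tumors replicate 2 was high in Hspa1b (675 CPM, others 198 to 243), Ccl7 (614 CPM, others 442 to 470) and Ccl12 (348 CPM, others 256 to 268), and low in Stard4 (5.65 CPM, others 8.04 to 8.46). Replicate 3 was high in Gbgt1 (20.2 CPM, others 13.9 to 14.5) and Fxyd2 (0.578 CPM, others 0.290 to 0.331) and low in Cxcl3 (6.94 CPM, others 11.3 to 11.6). Replicate 4 was high in S100a8 (2.56 CPM, others 1.21 to 1.28) and Il1rn (1830 CPM, others 1491 to 1518) and low in Itgam (1418 CPM, others 1604 to 1639). In LLC tumors replicate 4 was high in Ccl24 (135.4 CPM, others 35.5 to 39.2) and Gbp4 (99.3 CPM, others 64.8 to 69.4), replicate 1 was high in Hvcn1 (10.8 CPM, others 6.25 to 6.82) and low in Irf9 (120.1 CPM, others 136.3 to 137.9), and replicate 2 was low in Cxcl10 (556 CPM, others 684 to 691).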

How the results depend on the processing

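Over the alternatives the difference of differences was called in 4487 to 6727 genes, the tumor difference in 6170 to 7998 and the culture difference in 4871 to 7758, all within 1.5 times the reported counts. With each library left out in turn these were 4749 to 6345, 6630 to 7998 and 4871 to 6551 genes, with 2347 to 2991 reproduced, 1768 to 2067 tumor only, 989 to 1358 culture only and 906 to 1568 opposite. The count of opposite genes fell to 795 with all 34 libraries in the fit, the only count that moved by more than 1.5 times; the cause was not tested. Scaling tumor and culture libraries separately changed the split of the difference of differences from 50% to 39.6% higher (2295 higher and 3506 lower), with a median over all genes of -0.10.

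No pairing by replicate number was seen: same-numbered libraries correlated at -0.136 to 0.104 in their deviations, and not every sample correlated best with its own number. With so few libraries per group, these correlations cannot decide whether equal numbers share a mouse or a batch. With the replicate block 5155 genes were called for the difference of differences, 6959 between tumors, 5691 between supernatants and 1104 in the opposite class.

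Of 154 named gene results none reversed under these alternatives, and 25 lost their call in at least 1 (86 values lost it and 3451 kept their side), often with all 34 libraries in the fit; Cd274, Nr1h3 and Tmem176b lost it in 13 or 14. List medians moved by more than their spread between replicates in 26 values and by less in 411. The MC38 supernatant group has 3 libraries, 1 of them with connective tissue transcripts, which limits every culture value.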

Other observations

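Endothelium markers (6 genes) summed to 121.7 to 196.9 CPM in MC38 tumors, 137.2 to 166.6 CPM after MC38 supernatant and 108.7 to 118.9 CPM after LLC supernatant. The sum was 11.1 to 12.5 CPM in LLC tumors and 1.41 to 9.79 CPM in control cultures. A sum can rest on few genes. Of the 4 markers tested, 1 was called higher and none lower in MC38 tumors (median 0.91, highest 4.65). After MC38 supernatant 2 were called higher and 1 lower. Cldn5 was at 0 counts after both supernatants and Tek at 0 counts in LLC tumors and after LLC supernatant.

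Gene lists also differed in where the supernatants stood against untreated cells. Both supernatants lay above the control mean in 15 of 15 monocyte and neutrophil chemokines, in at least 22 of 24 cholesterol genes and in at least 31 of 34 glycolysis and hypoxia genes. In classical monocyte genes only 6 of 20 lay above it under either supernatant. The share of all genes tested above the control mean was not computed, and control cultures were not in the fit. A trait of a list therefore cannot be told apart here from a general shift between treated and control cultures.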
